A study of Mus musculus with 11 samples.

Results

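The genes described here are 32 Toll-like receptors, cytosolic pattern receptors and their signalling partners, chosen by gene symbol and read from the matching rows of the deposited count table. All 32 were found among the 55486 genes of the table. The tested animals were FVB/N mice with metastasis derived from mammary tumours that received cisplatin together with aPD1 and aCTLA4 (7 mice, 1 library each, called treated 1 to treated 7). They were set against mice of the same strain and disease that received Control antibody (4 mice, called control 1 to control 4). Cisplatin is a DNA-crosslinking drug, and the antibodies block the checkpoint receptors PD1 and CTLA4. Cisplatin and both antibodies were given together, so their separate effects cannot be told apart. No label states the age of the mice. In both groups blood was taken from the heart on day 21 after treatment began, red cells were lysed, and eosinophils were sorted by a live gate on CD45+, CD3-, CD11b+ and F4/80+ events of high side scatter whose Ly6g was low. The eosinophils of each mouse were sequenced as bulk RNA by Smart-seq2, a full-length protocol for small amounts of RNA. In such samples fewer cells of a type and less RNA per cell cannot be told apart.

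Pattern receptors detect conserved molecules of microbes and of damaged cells. Toll-like receptors at the cell surface bind lipids, lipoproteins and flagellin, while those in endosomes bind nucleic acids, and most of them signal through the adaptor MYD88, the IRAK kinases and the ubiquitin ligase TRAF6 to NF-kB. NOD1 and NOD2 sense fragments of bacterial cell wall in the cytosol, inflammasome receptors activate caspase-1, and the lectin CLEC7A reads fungal beta-glucan through the kinase SYK and the adaptor CARD9. Eosinophils are known to carry some of these receptors and to respond to bacterial and viral products.

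The treated libraries held 5356118 to 8016658 counts and the control libraries 3733156 to 6721060. Control 3 and control 4 stood apart, with 28.2% and 20.1% of their counts on haemoglobin genes, against 1.16% to 4.42% in treated libraries and 1.06% and 0.165% in control 1 and control 2. Summed levels of 10 eosinophil markers, in counts per 1000000 of the library total, were 3720 to 10700 in treated and 4540 to 10900 in control libraries, so the labelled cell type was present throughout. The 32 genes together had 11156 to 16901 counts in treated and 3834 to 9963 counts in control libraries. Of these genes, 20 had counts in all 11 libraries. A library in which a gene had 0 counts still allows a level of up to 3 counts, which was 0.38 to 1.2 CPM in the control libraries, and this limit covers counting error only.

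No gene of the pathway passed the test between treated and control libraries. Of the 31 genes that passed the filter on low counts, 0 reached an adjusted p of 0.05 in either direction by edgeR's quasi-likelihood test with Benjamini-Hochberg adjustment over 11389 genes, where 0% of all genes were called in either direction. At an unadjusted p under 0.05, 2 of the 31 genes stood out, Irak3 and Syk, which is 6.45% of them, against 6.82% of all genes tested. Both had the higher mean in treated libraries (3.7% of all genes were higher and 3.13% lower by this rule). DESeq2 called 0 of the 32, while it called 0.488% of all genes higher and 0.168% lower. In 0 of the 31 genes were the treated and control libraries fully separate, a pattern that 0.509% of all genes tested showed with treated higher and 0.43% with treated lower. The common coefficient of biological variation was 0.828.

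As a list, the fold changes leaned towards treated. Of the 31 tested genes 22 had a log2 fold change above 0 (71%, against 51.8% of all genes tested), and the median was 0.43, against 0.03 over all genes. The summed level of the 32 genes was 1830 to 2700 CPM of the library total in treated and 977 to 1480 in control libraries, with no overlap. That total includes haemoglobin counts, 28.2% in control 3 and 20.1% in control 4, which lower the share of all other genes in these libraries. Control 1 and control 2 had 1.06% and 0.165% haemoglobin counts and were also below every treated library, at 1480 and 1380 CPM of the total. On the scale used for single genes, CPM corrected by the trimmed mean of M values (TMM), the sums overlapped, at 1760 to 2420 in treated libraries and 1260, 1260, 2210 and 1390 in control 1 to control 4. Only control 3 lay within the treated range there, and the cause of the difference was not tested. Below, CPM is on the TMM scale, and a level compared between genes is CPM per kilobase of exon.

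**Figure D1:**
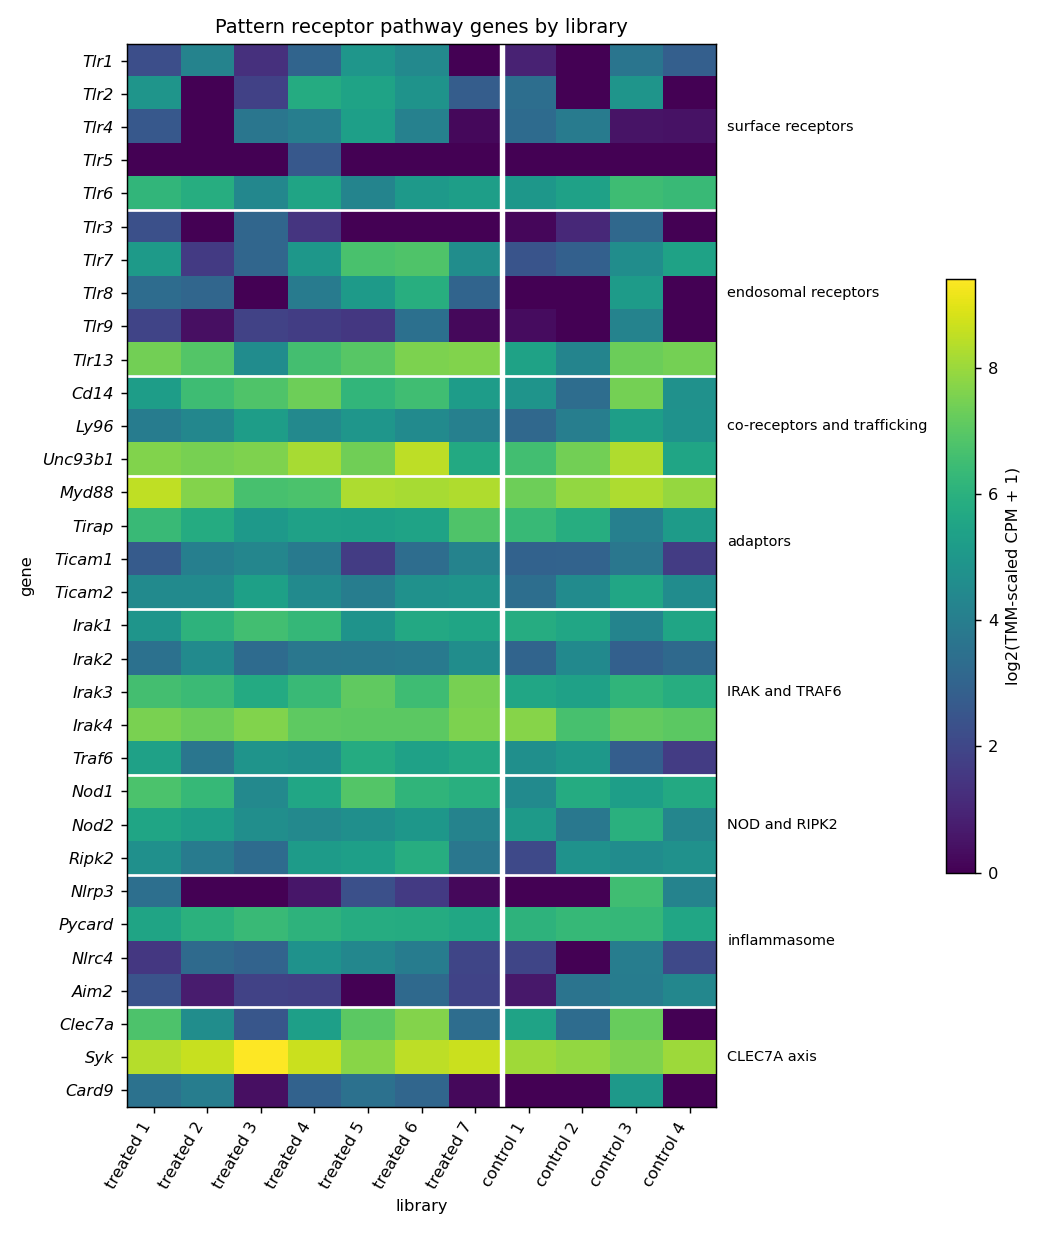
Heat map of log2(TMM-scaled CPM + 1) for the 32 genes (rows, grouped by role) in the 7 treated libraries (left of the white line) and the 4 control libraries (right). Myd88, Syk and Irak4 were bright in every library, whereas Tlr5 was seen in treated 4 alone and Tlr8, Card9 and Nlrp3 had 0 counts in at least 2 of the 4 control libraries.

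Among the surface receptors Tlr6 had the highest level per kilobase of exon, and it was the only one with counts in all 11 libraries. TLR6 pairs with TLR2 to bind diacylated lipoproteins. Its level ranged from 17.8 to 71.3 CPM in treated libraries with a median of 37.7, and was 30.2, 40.6, 88.2 and 82.2 CPM in control 1 to control 4. The highest values were in control 3 and control 4, and the groups overlapped. The log2 fold change was -0.58 ± 0.42 (SE; adjusted p = 0.866, edgeR), and without control 3 and control 4 it was 0.21.

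Tlr2, the receptor that TLR1 and TLR6 both partner, stood at 0 to 54.0 CPM in treated libraries (median 27.6) and at 9.51, 0, 28.8 and 0 CPM in control 1 to control 4. It had counts in 6 of 7 treated and 2 of 4 control libraries, so it was patchy in both groups. The log2 fold change was 1.29 ± 1.48 (SE; adjusted p = 0.937, edgeR). Tlr1, the partner for triacylated lipoproteins, averaged 11.5 ± 11.3 CPM (SD, n = 7) in treated and 4.67 ± 5.38 CPM (SD, n = 4) in control libraries. Tlr4, the lipopolysaccharide receptor, averaged 12.5 ± 13.3 CPM in treated libraries and 5.88 ± 6.66 CPM in controls. Tlr5, the flagellin receptor, was detected in treated 4 alone, at 4.95 CPM, and it did not pass the filter.

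Tlr1 (chromosome 5, 64924679 to 64933563, GRCm38) and Tlr6 (chromosome 5, 64952031 to 64960097) lie side by side and share long stretches of coding sequence, which bears on how their reads could be assigned. Of all 50-base words in their annotated transcripts, 15.4% of those of Tlr1 and 12.3% of those of Tlr6 also occurred in transcripts of other genes, 454 of them between the pair. The longest exact run was 229 bases in the coding exon of each gene. It is shown in capitals with 20 bases on either side, at chr5:64925517-64925785 for Tlr1 and chr5:64953808-64954076 for Tlr6, both on the minus strand of GRCm38 and read from GENCODE M21 transcripts.
Tlr1: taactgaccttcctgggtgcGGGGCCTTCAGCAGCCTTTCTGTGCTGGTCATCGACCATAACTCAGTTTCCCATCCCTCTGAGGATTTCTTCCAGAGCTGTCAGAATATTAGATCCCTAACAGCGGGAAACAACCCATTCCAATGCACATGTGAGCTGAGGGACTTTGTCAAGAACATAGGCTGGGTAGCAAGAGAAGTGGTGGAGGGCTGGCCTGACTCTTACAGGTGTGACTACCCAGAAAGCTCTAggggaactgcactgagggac
Tlr6: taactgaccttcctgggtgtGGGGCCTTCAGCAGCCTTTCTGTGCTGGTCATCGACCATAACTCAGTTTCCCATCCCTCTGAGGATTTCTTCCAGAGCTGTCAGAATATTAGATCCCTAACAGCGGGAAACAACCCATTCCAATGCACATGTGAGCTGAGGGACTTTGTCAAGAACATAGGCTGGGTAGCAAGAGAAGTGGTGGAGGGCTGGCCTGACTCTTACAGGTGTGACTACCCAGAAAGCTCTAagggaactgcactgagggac
A read that lies within the run cannot be told apart between these genes, so the levels of both are uncertain to that degree. Tlr13, Tlr2, Tlr7, Tlr8 and Tlr9 shared no 50-base word with transcripts of other genes.

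Of the endosomal receptors, and of all 10 Toll-like receptor genes, Tlr13 had the highest level per kilobase of exon, at 30.3 ± 14.1 CPM per kilobase in treated (SD, n = 7) and 22.7 ± 18.3 in control libraries (SD, n = 4). TLR13 recognises bacterial ribosomal RNA and is present in mice but not in humans. Tlr6 came next over all libraries, at 10.8 ± 5.23 and 16.2 ± 7.82 CPM per kilobase in treated and control libraries, followed by Tlr7 at 10.9 ± 10.9 in treated and 4.62 ± 4.23 in control libraries. After them, again in treated and then in control libraries, came Tlr2 at 7.67 ± 6.98 and 3.18 ± 4.51, Tlr8 at 5.18 ± 5.70 and 2.40 ± 4.80, Tlr1 at 3.42 ± 3.37 and 1.40 ± 1.61, and Tlr4 at 2.25 ± 2.39 and 1.06 ± 1.20 CPM per kilobase. Tlr9, Tlr3 and Tlr5 were lowest, at 0.833, 0.363 and 0.148 CPM per kilobase in treated and 1.29, 0.445 and 0 in control libraries. Tlr13 stood above Tlr6 by more than their SDs in treated libraries but not in control libraries, and the other neighbours in this order lay within the spread between libraries. Tlr13 was the highest Toll-like receptor gene in all 7 treated libraries, with 29.3% to 69.6% of the summed level per kilobase, and in 3 of 4 control libraries, with 40.8%, 38% and 54.4% in control 1, control 3 and control 4. In control 2 it had 21.7%, and Tlr6 led with 56.2%.

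**Figure D2:**
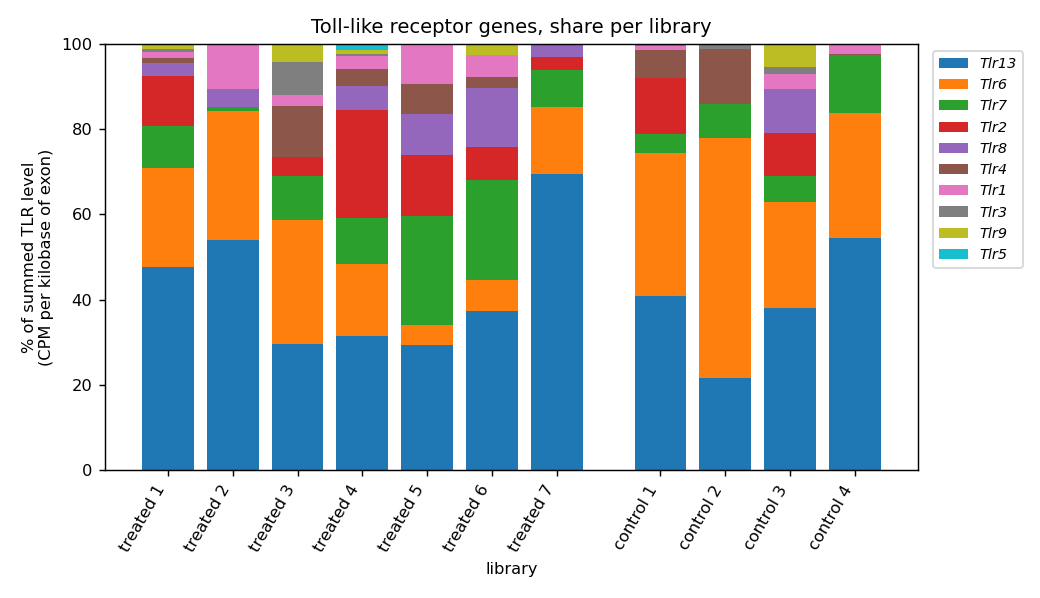
Share of each Toll-like receptor gene in the summed level (CPM per kilobase of exon, in %) of the 10 receptor genes, 1 bar per library, with treated libraries on the left and control libraries on the right. Tlr13 (blue) was the largest share in every library but control 2, where Tlr6 (orange) had 56.2%, and Tlr7 (green) reached 25.6% in treated 5 and 23.4% in treated 6.

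In single libraries Tlr13 ranged from 23.0 to 195 CPM in the treated group with a median of 125, and was 42.4, 18.1, 155 and 175 CPM in control 1 to control 4. Treated 3 was the low library of its group, and control 1 and control 2 were the low ones of theirs. The log2 fold change was 0.43 ± 0.59 (SE; adjusted p = 0.943, edgeR). Without control 3 and control 4 it was 2.14 (adjusted p = 0.344, edgeR). The annotated promoter of Tlr13, the leading receptor gene, is shown from RefSeq (GRCm38.p6, chrX:106143025-106143324, plus strand, 250 bases before to 50 after the start), with the core word of the myeloid factor PU.1, GAGGAA or its reverse complement, in capitals.
Tlr13: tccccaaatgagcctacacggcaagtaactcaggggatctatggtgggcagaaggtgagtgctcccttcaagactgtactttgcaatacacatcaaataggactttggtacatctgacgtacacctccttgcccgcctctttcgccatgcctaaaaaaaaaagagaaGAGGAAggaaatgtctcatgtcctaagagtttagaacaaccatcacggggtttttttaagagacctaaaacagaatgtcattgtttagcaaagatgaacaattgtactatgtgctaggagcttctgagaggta
Of the 32 genes, 25 had a usable promoter entry, with 34 windows in all. Windows of 300 bases were searched on both strands for 6 short words, with any overlap between them ignored. GAGGAA was in 13 of the 34 windows, belonging to 12 of the 25 genes, against 28.3% of all 32851 windows. The CCAAT box CCAAT was in 12 (37.4% of all windows), the TATA word TATAAA in 4 (13.6%), the interferon-response-like pair of GAAA words with 2 bases between them in 2 (3.44%), the AP-1 word TGANTCA in 1 (7.81%) and the E-box CACGTG in 3 (7.15%). GAGGAA was picked for display after these counts were known, and nothing was tested on them.

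Tlr7, a receptor for single-stranded RNA, spread from 2.05 to 112 CPM in treated libraries (median 30.6), and was 4.44, 6.37, 23.2 and 41.4 CPM in control 1 to control 4. Treated 5 and treated 6 were far above the other treated libraries, and the groups overlapped (log2 fold change 1.26 ± 0.91, SE; adjusted p = 0.866, edgeR). Its neighbour on chromosome X, Tlr8, had counts in 6 of 7 treated and 1 of 4 control libraries and averaged 18.6 ± 20.4 CPM in the treated group (SD, n = 7), against 8.61 ± 17.2 CPM among controls (SD, n = 4). The control mean of Tlr8 came from control 3 alone, at 34.5 CPM. Tlr9, a receptor for unmethylated CpG DNA, averaged 2.90 ± 3.40 and 4.47 ± 8.77 CPM in treated and control libraries. Tlr3, which binds double-stranded RNA, averaged 1.89 ± 2.89 CPM in treated libraries, against 2.32 ± 3.83 CPM in controls.

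The genes that help receptors reach or bind their ligands were in every library. Unc93b1, which escorts endosomal Toll-like receptors from the endoplasmic reticulum, ranged from 51.7 to 352 CPM in treated libraries (median 194), and was 94.6, 169, 314 and 45.8 CPM in control 1 to control 4 (log2 fold change 0.38 ± 0.49, SE; adjusted p = 0.940, edgeR). Cd14, which hands lipopolysaccharide to TLR4, ranged from 35.4 to 162 CPM in treated libraries (median 88.0), and was 28.4, 9.34, 171 and 25.8 CPM in control 1 to control 4. All 7 treated libraries were above 3 of the controls, while control 3 was above all of them. For Cd14 the log2 fold change was 0.55 ± 0.65 (SE; adjusted p = 0.937, edgeR), and 2.03 without control 3 (adjusted p = 0.593, edgeR). Ly96, the MD-2 subunit of the TLR4 complex, averaged 22.7 ± 7.94 CPM in the treated group (SD, n = 7), against 22.0 ± 13.1 CPM among controls (SD, n = 4). Per kilobase of exon Ly96 was at 22.2 ± 7.78 in treated and 21.5 ± 12.9 in control libraries, above Tlr4 itself at 2.25 ± 2.39 in treated and 1.06 ± 1.20 in control libraries.

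Myd88 had the highest mean level of all 32 genes per kilobase of exon, at 92.7 ± 40.6 CPM per kilobase in treated (SD, n = 7) and 91.9 ± 23.7 in control libraries (SD, n = 4). Unc93b1 came next, at 67 ± 31.2 in treated and 51.4 ± 38.6 in control libraries, so the ranges of mean ± SD overlapped. Myd88 did not lead in every library. In treated 4 it had 105 CPM over 2576 exon bases, against 285 CPM over 3031 bases for Unc93b1. MYD88 is the adaptor of all Toll-like receptors except TLR3. In single libraries it ranged from 100 to 363 CPM in the treated group (median 290), and was 159, 237, 307 and 244 CPM in control 1 to control 4. The groups lay on top of each other, at 0.01 ± 0.35 for the log2 fold change (SE; adjusted p = 0.997, edgeR), and its sign depended on the scaling (-0.021 with DESeq2 size factors). Its exons overlap those of Acaa1a on the opposite strand over 290 bases, so without a known strand setting some of its reads may belong to that gene.

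Tirap, which bridges TLR2 and TLR4 to MYD88, ranged from 33.1 to 113 CPM in treated libraries (median 43.2), and was 79.1, 57.9, 16.0 and 34.5 CPM in control 1 to control 4. Control 3 was the lowest library, the groups overlapped, and exons of Tirap overlap antisense Gm39318 over 446 bases (log2 fold change 0.29 ± 0.44, SE; adjusted p = 0.950, edgeR). The adaptors of the arm that leads to interferon had fewer reads. Ticam1, encoding TRIF, averaged 11.8 ± 6.32 CPM (SD, n = 7) and 7.13 ± 4.19 CPM (SD, n = 4) in treated and control libraries, and Ticam2, encoding TRAM, 24.8 ± 7.69 CPM in treated libraries, against 25.3 ± 15.4 CPM in controls. Exons of Ticam2 overlap those of Tmed7 on the same strand over 838 bases, which makes the level of Ticam2 uncertain.

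The IRAK genes and Traf6 had counts in every library, and all 5 had a log2 fold change above 0 (median 0.43, from Irak4 to Traf6). Irak3, which encodes IRAK-M, a member that dampens Toll-like receptor signalling, ranged from 52.8 to 178 CPM in treated libraries with a median of 87.8, and was 46.2, 40.3, 69.7 and 56.7 CPM in control 1 to control 4. In 6 of 7 treated libraries it was above every control, and treated 3 lay among the controls. The mean was 103 ± 41.6 CPM (SD, n = 7) in treated and 53.2 ± 12.9 CPM (SD, n = 4) in control libraries, with a log2 fold change of 0.95 ± 0.32 (SE) and an unadjusted p of 0.01 (adjusted p = 0.626, edgeR). The value was 0.76 to 1.14 when any single library was left out, 1.28 without control 3 and control 4, and none of these passed the adjusted test (adjusted p = 0.397 without the pair, edgeR). In treated 1 to treated 4 and control 1 to control 4 alone it was 0.57, both with and without a block for the replicate number (unadjusted p = 0.174 and 0.103, edgeR). With the letters of the header identifiers as a covariate, described below, its unadjusted p was not under 0.05 either (edgeR). Exons of Irak3 overlap those of Tmbim4 on the opposite strand over 192 bases.

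**Figure D3:**
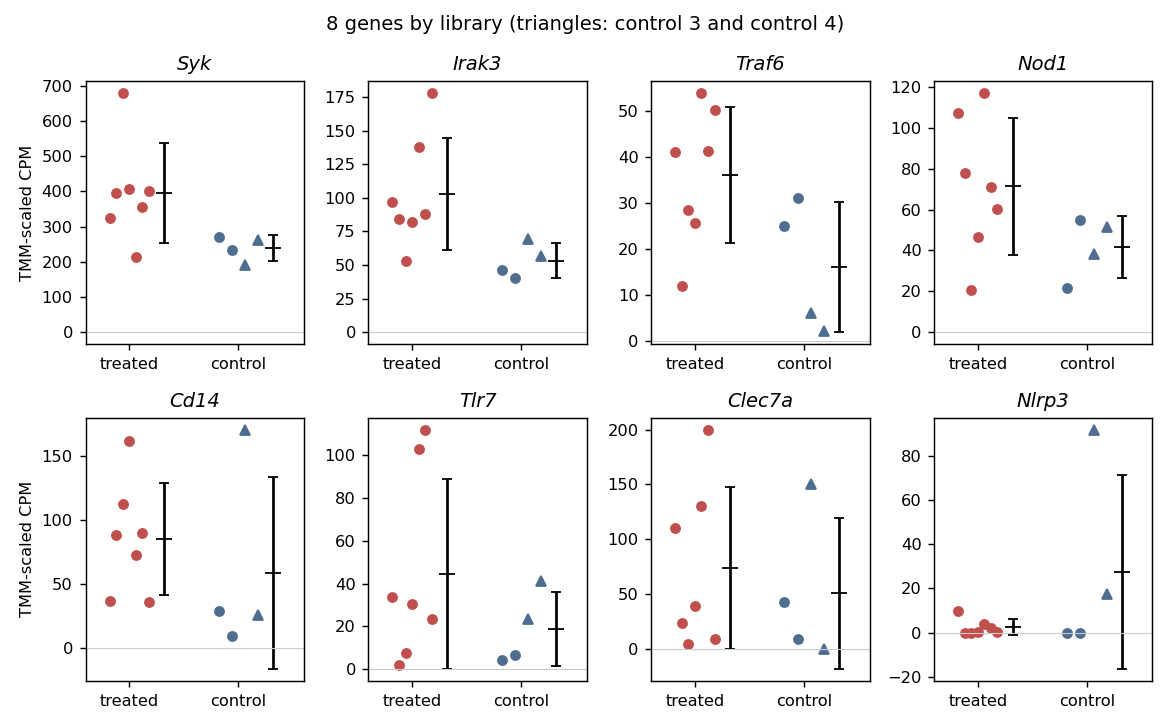
TMM-scaled CPM of 8 genes in single libraries, treated (red) left of control (blue), with the mean and SD as a black bar and control 3 and control 4 as triangles; the 8 were picked from the fully described genes after their values were known. Irak3 and Syk in treated libraries lay mostly above the controls, whereas in Cd14, Clec7a and Nlrp3 control 3 was far above the other controls.

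Irak4, the kinase that starts the cascade at MYD88, was detected throughout, with 130 to 197 CPM in treated libraries (median 158) and 206, 101, 140 and 129 CPM in control 1 to control 4 (log2 fold change 0.15 ± 0.23, SE; adjusted p = 0.950, edgeR). Its exons overlap those of Twf1 on the opposite strand over 395 bases. Traf6 ranged from 12 to 53.8 CPM in treated libraries (median 40.9), and was 24.9, 31.1, 6.01 and 2.18 CPM in control 1 to control 4. The low controls were control 3 and control 4. For Traf6 the log2 fold change was 1.145 ± 0.62 (SE; unadjusted p = 0.0862, adjusted p = 0.776, edgeR), and without control 3 and control 4 it was 0.40. Irak1 averaged 55.2 ± 24.4 CPM (SD, n = 7) in treated and 41.6 ± 16.4 CPM (SD, n = 4) in control libraries, and Irak2 14.7 ± 5.66 CPM in treated libraries, against 10.8 ± 6.99 CPM in controls.

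The promoter windows of Irak3 and Syk, the genes with the smallest unadjusted p and picked for that reason, are shown with the same GAGGAA word in capitals. Each gene has a pair of windows in RefSeq (GRCm38.p6), and the one that holds the word is shown, at chr10:120202081-120202380 on the minus strand for Irak3 and chr13:52596632-52596931 on the plus strand for Syk. A match describes these letters only.
Irak3: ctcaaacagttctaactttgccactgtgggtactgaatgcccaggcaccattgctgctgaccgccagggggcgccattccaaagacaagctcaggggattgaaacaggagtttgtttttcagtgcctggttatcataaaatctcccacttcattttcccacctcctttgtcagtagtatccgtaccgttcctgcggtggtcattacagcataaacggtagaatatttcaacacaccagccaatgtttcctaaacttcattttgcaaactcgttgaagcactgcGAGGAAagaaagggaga
Syk: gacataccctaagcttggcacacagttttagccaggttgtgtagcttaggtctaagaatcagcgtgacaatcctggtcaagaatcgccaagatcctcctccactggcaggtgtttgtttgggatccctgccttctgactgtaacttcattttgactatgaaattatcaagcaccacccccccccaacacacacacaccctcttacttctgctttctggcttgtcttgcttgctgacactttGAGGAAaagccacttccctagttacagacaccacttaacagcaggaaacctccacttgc

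Of the cytosolic cell wall sensors, Nod1 ranged from 20.8 to 117 CPM in treated libraries (median 70.9), and was 21.8, 54.9, 38.1 and 51.6 CPM in control 1 to control 4. NOD1 binds a dipeptide found mainly in the wall of Gram-negative bacteria. In 5 of 7 treated libraries it was above every control, and the log2 fold change was 0.78 ± 0.42 (SE; unadjusted p = 0.0845, adjusted p = 0.773, edgeR). Nod2, the muramyl dipeptide sensor, ranged from 17.3 to 45.8 CPM in treated libraries (median 24.8), and was 34.4, 12.5, 61.7 and 18.9 CPM in control 1 to control 4, at -0.15 ± 0.44 for the log2 fold change (SE; adjusted p = 0.975, edgeR). Ripk2, the kinase that both sensors recruit, averaged 27.4 ± 17.4 CPM in the treated group (SD, n = 7), against 19.7 ± 11.1 CPM among controls (SD, n = 4).

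The inflammasome genes included both members with the most negative fold changes. Nlrp3, a sensor of ion fluxes and other danger signals, had 0 to 9.76 CPM in treated libraries (median 0.472), and 0, 0, 91.8 and 17.4 CPM in control 1 to control 4. The control mean thus came from control 3 and control 4, and control 1 and control 2 had no counts. The log2 fold change was -3.53 ± 1.67 (SE; unadjusted p = 0.0526, adjusted p = 0.731, edgeR). Without control 3 it was -1.23, and without control 3 and control 4, against 2 libraries at 0, the fitted value turned to above 0. Aim2, a sensor of cytosolic double-stranded DNA, averaged 3 ± 2.71 CPM (SD, n = 7) in treated and 11.4 ± 7.95 CPM (SD, n = 4) in control libraries, with 0.507, 11.3, 14.4 and 19.3 CPM in control 1 to control 4 and 0 to 8.21 CPM in treated libraries (log2 fold change -1.91 ± 1.11, SE; adjusted p = 0.805, edgeR).

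Pycard, which encodes the adaptor ASC and whose exons overlap Gm45205 on the opposite strand over 485 bases, was even across libraries, with 43.6 to 81.1 CPM in treated libraries (median 55.8) and 67.1, 77.0, 76.5 and 46.5 CPM in control 1 to control 4 (log2 fold change -0.18 ± 0.25, SE; adjusted p = 0.948, edgeR). Per kilobase of exon its mean was 15.6 ± 3.36 in treated and 17.6 ± 3.75 in control libraries. The sensors had lower means in treated and control libraries, Nlrp3 (0.574 ± 0.882 and 6.73 ± 10.8), Nlrc4 (2.40 ± 1.88 and 1.09 ± 1.36) and Aim2 (0.858 ± 0.773 and 3.25 ± 2.27). In control libraries the ranges of mean ± SD of Pycard and Nlrp3 overlapped. In control 3 Nlrp3 had 91.8 CPM over 4057 exon bases, against 76.5 CPM over 3800 bases for Pycard. Nlrc4, which acts with NAIP proteins on flagellin, averaged 11.5 ± 9.06 CPM in treated libraries and 5.25 ± 6.55 CPM in controls.

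Syk, the tyrosine kinase downstream of CLEC7A and of Fc receptors, had the highest mean CPM of the 32 genes in the treated group, although Myd88 was above it in treated 1 and treated 5. It ranged from 213 to 679 CPM in treated libraries (median 396), and was 269, 234, 190 and 262 CPM in control 1 to control 4. In 6 of 7 treated libraries it was above every control, and treated 5 lay among the controls. The mean was 396 ± 142 CPM (SD, n = 7) in treated and 239 ± 35.7 CPM (SD, n = 4) in control libraries, with a log2 fold change of 0.73 ± 0.27 (SE; unadjusted p = 0.0174, adjusted p = 0.626, edgeR). It was 0.56 to 0.84 when any single library was left out, and 0.69 without control 3 and control 4 (unadjusted p = 0.0768, adjusted p = 0.608, edgeR).

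Clec7a, which encodes Dectin-1, ranged from 4.71 to 200 CPM in treated libraries (median 38.9), and was 43.1, 9.06, 150 and 0 CPM in control 1 to control 4. Treated 1, treated 5, treated 6 and control 3 were high, and the groups overlapped (log2 fold change 0.55 ± 1.21, SE; adjusted p = 0.966, edgeR). Card9, which links SYK to NF-kB, had counts in all 7 treated libraries at 0.137 to 14.8 CPM, and in the control group only in control 3, at 33.3 CPM. Its mean was 7.25 ± 5.44 CPM (SD, n = 7) in treated and 8.31 ± 16.6 CPM (SD, n = 4) in control libraries.

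**Figure D4:**
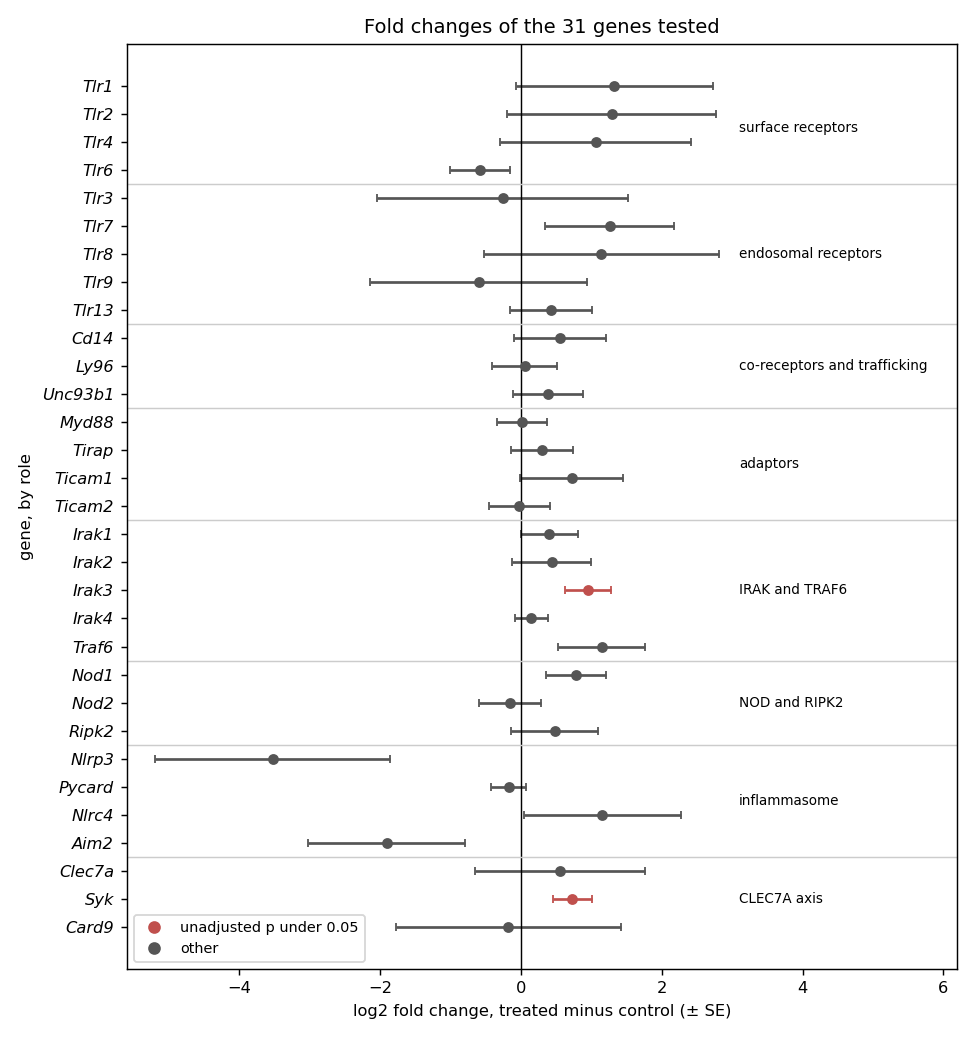
Log2 fold change (treated minus control) with its SE for the 31 genes tested, from top to bottom by role. Irak3 and Syk (red) had an unadjusted p under 0.05, none passed the adjusted test, and the patchy genes such as Tlr8, Nlrp3 and Card9 had the widest errors.

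The summed monocyte and macrophage markers had the higher median in treated libraries, but their difference did not pass the test. All 15 of these markers had counts and were tested, 10 had a log2 fold change above 0, and 3 (C1qa, C1qb and C1qc, subunits of complement C1q) had an unadjusted p under 0.05 (edgeR), all higher in treated. Ly6c2 (-0.384), Lyz2 (-0.017), Ms4a7 (-0.5), F13a1 (-0.557) and Ms4a6c (-0.245) were below 0. None of the 15 passed after adjustment with edgeR, while DESeq2 called C1qb (log2 fold change 5.52, adjusted p = 0.00538) and C1qc (7.09, adjusted p = 0.0111) higher in treated. Their summed level was 1750 to 14800 CPM of the library total in treated libraries (median 7090) and 928 to 11500 in control libraries (median 2200). Control 3 was the highest control and treated 6 the highest treated library. By the mean over all libraries, most of the sum came from Lyz2 (4580 CPM), followed by Csf1r with 665. The sums thus follow Lyz2 more than the other markers. Between groups the sums differed by 1.11 on the log2 scale (exact two-sided permutation test over 330 splits, p = 0.164, adjusted p = 0.491 over 9 marker lists). The mean log2 CPM of the 15 monocyte and macrophage markers was 3.77 to 6.88 in treated and 2.04 to 5.22 in control libraries. As a covariate it thus partly follows treatment, and the fit cannot fully separate them. With it, 16 of the 31 genes had a fold change above 0 and their median was 0.01, against 0.10 over all genes. In that fit Cd14 (-0.59), Unc93b1 (-0.45) and Clec7a (-0.44) turned to below 0, while Irak3 stood at 1.10 and Syk at 0.68 (adjusted p = 0.412 and 0.639, edgeR). Irak3, Traf6 and Tirap had an unadjusted p under 0.05 there, which is 9.68% of the 31 genes against 8.75% of all genes in that fit, and 0 genes of the pathway passed after adjustment.

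B cell markers, of which all 12 had counts, summed to 1410 to 6720 CPM of the total in treated and 539 to 3280 in control libraries (difference 1.09 on the log2 scale, exact permutation p = 0.0939, adjusted p = 0.491), and their part in the levels of Tlr7 and Tlr9, which B cells also use, was not tested. Basophil and mast cell markers differed by 1.59 on the log2 scale (exact permutation adjusted p = 0.491). The summed markers of eosinophils, neutrophils, T and NK cells, dendritic cells, erythroid cells and platelets differed by -0.44 to 0.13 (exact permutation adjusted p = 0.927 each). Most of the neutrophil sum came from Retnlg, whose mean over all libraries was 9630 CPM, followed by Mmp9 with 474. Control 3 was the highest of all libraries in S100a8 (1470 CPM, next 382), S100a9 (688, next 220), Ngp, Mmp8, Camp, Cxcr2 and Ly6g. Retnlg, Mmp9, Ltf, Mpo and Elane were highest in other libraries, so the neutrophil sum does not show this. Of 9 tested neutrophil markers 0 had a log2 fold change above 0, with values from -1.94 (Mmp8) to -0.12 (Ltf). Of 10 eosinophil markers 2 were above 0. None of these neutrophil and eosinophil markers had an unadjusted p under 0.05 (edgeR). Gene by gene, 0 of 8 erythroid markers had a log2 fold change above 0 and 5 had an unadjusted p under 0.05, among them Hba-a1 at -2.69 and Hbb-bs at -3.21 (adjusted p = 0.626 each, edgeR), and 0 of 7 platelet markers were above 0. The erythroid sums were 11900 to 45600 CPM of the total in treated libraries and 10800, 1660, 288000 and 206000 in control 1 to control 4. The part of erythroid, platelet and neutrophil RNA in the levels of the pathway genes was not tested.

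Leaving out control 3, the library with the most haemoglobin and the highest monocyte markers among controls, took the number of genes with an unadjusted p under 0.05 from 2 to 6 of 31 (Tlr8, Tlr9, Cd14, Irak3, Syk and Card9, all higher in treated; 7.33% of all genes in that fit). Control 3 held the highest control value of Tlr8, Tlr9, Cd14 and Card9 (34.5, 17.6, 171 and 33.3 CPM). Leaving it out lowers the control mean of these genes by itself, so their small p-values there are no separate support. Without control 3 and control 4 it was 7 (Tlr1, Tlr7, Tlr8, Tlr13, Cd14, Irak3 and Card9, all higher; 8.57% of all genes), 28 of 31 genes were above 0 and the median was 0.92, against 0.10 over all genes. Only 2 controls remain there, and no gene of the pathway passed after adjustment (lowest adjusted p = 0.26, edgeR). The highest control value of each of these 7 genes was in control 3 or control 4, so the same limit holds for this fit.

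The sample identifiers in the table header differ between libraries in letters and digits. The letters are shared by treated 1 and all controls, and another set by treated 2 to treated 7; with the letters as a covariate 18 of the 31 genes were above 0, the median was 0.32 and 0 had an unadjusted p under 0.05 (0 after adjustment, edgeR). Over all genes in that fit 46.9% were above 0, the median was -0.075 and 3.44% had an unadjusted p under 0.05. The leading digits separate all treated from all control libraries, so whatever they mark cannot be told apart from treatment.

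**Figure D5:**
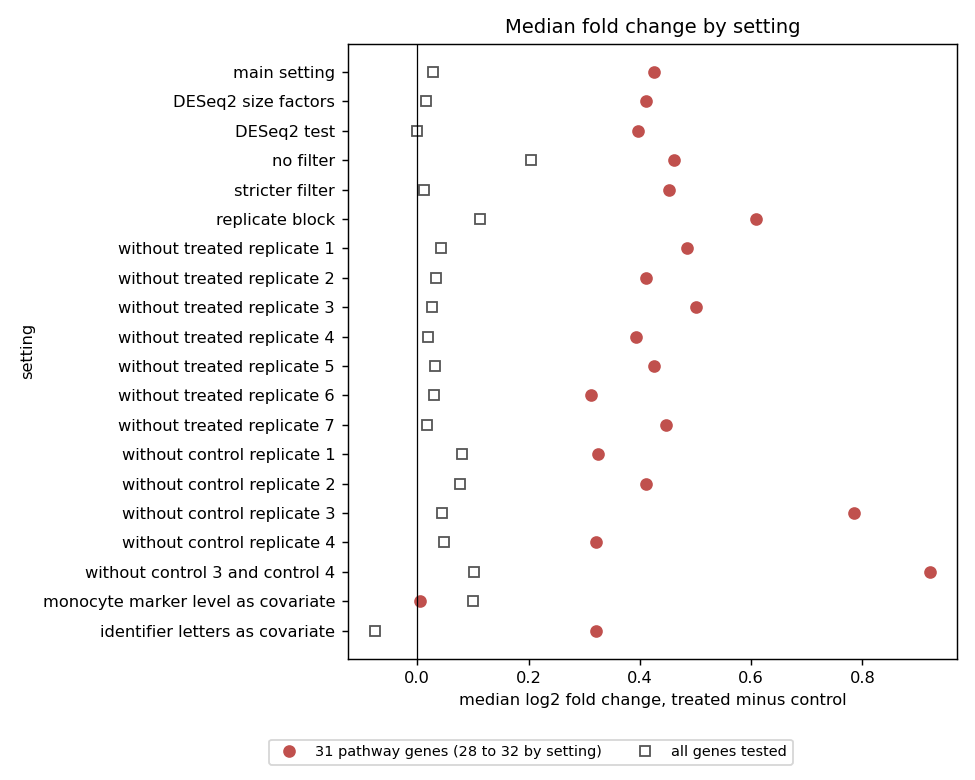
Median log2 fold change (treated minus control) of the pathway genes (red points) and of all genes tested (open squares), 1 row per setting. The red points lay between 0.01 with the monocyte marker covariate and 0.92 without control 3 and control 4.

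Further genes of innate sensing gave a similar picture. Of 65 such genes 58 were tested, 40 had a log2 fold change above 0 (69%, median 0.20), 0 passed the adjusted test in either direction, and 2, Slc15a3 and Casp4, had an unadjusted p under 0.05 (3.45%, against 6.82% of all genes). Casp4, which in mice encodes caspase-11, the sensor of cytosolic lipopolysaccharide, ranged from 12.3 to 46.7 CPM in treated libraries (median 18.7), and was 4.06, 9.34, 0.401 and 13.1 CPM in control 1 to control 4. Only control 4 reached into the treated range (log2 fold change 1.87 ± 0.73, SE; adjusted p = 0.628, edgeR). Slc15a3, a lysosomal peptide and histidine transporter, had 0 counts in all controls and 0 to 13.5 CPM in treated libraries (median 3.58) (adjusted p = 0.626, edgeR).

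Slc15a4, the related transporter needed for endosomal Toll-like receptor signalling, averaged 42.5 ± 15.5 CPM (SD, n = 7) in treated and 23.7 ± 10 CPM (SD, n = 4) in control libraries (log2 fold change 0.84 ± 0.40, SE; adjusted p = 0.731, edgeR). The most abundant of these genes were Fcer1g, the Fc receptor gamma chain, at 828 ± 248 and 894 ± 210 CPM in treated and control libraries, and Prkcd, a kinase between SYK and CARD9, at 740 ± 182 CPM in treated libraries, against 573 ± 75.2 CPM in controls. Nrros, a leucine-rich repeat protein related to Toll-like receptors, stood at 418 ± 158 CPM in treated libraries, against 276 ± 82.7 CPM in controls. None of these passed the test (adjusted p from 0.731 for Slc15a4 to 0.969 for Fcer1g, edgeR).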

How the data were processed

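RNA of sorted blood eosinophils was sequenced in 11 libraries, 7 treated and 4 control, 1 mouse each, with groups taken from the sample titles. The authors' deposited table holds raw counts by gene. Tools named in the submitters' processing notes are bcl2fastq (2.20.0.422), HISAT2 (2.10) and SAMtools (1.15.1), with build GRCm38. Which counter, strand setting and annotation served is not given in the sources used here. The table held 55486 genes and 1 row naming no gene, with 0 counts, which was left out. Among 55 library pairs the lowest chi-square per gene was 55.2, so none was counted as a repeat.

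The test was edgeR 4.0.16 under R 4.3.3 (quasi-likelihood test, robust dispersions, TMM scaling, filterByExpr, Benjamini-Hochberg over 11389 genes, threshold 0.05). Fold changes are treated minus control. Exon lengths came from GENCODE M21 and matched 55140 genes by identifier. Reads had no molecular identifiers. The scripts were tested on simulated data with changes of known size. There the fit called 4 of 50 genes changed by 1 log2 unit and 22 of 50 changed by 2 (edgeR, adjusted p under 0.05). A change of 1 log2 unit was thus mostly missed, and a gene that did not pass may still differ. The fit also called 4 unchanged genes. Changes were placed only in genes above a mean CPM that Tlr1, Tlr3, Tlr9, Nlrc4, Aim2 and Card9 did not reach. These shares therefore do not describe those genes.

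Marker sums were compared as log2(sum + 1) by exact permutation with Python 3.11.15 and scipy 1.17.1. Every gene of the list is named; full values went to the 2 most abundant of each role and the 5 with the smallest p, and, of the further genes, to the 3 most abundant and the 3 with the smallest p. The members, lists and alternatives were chosen with earlier results of these data known. Alternatives were DESeq2 1.42.0 size factors and test, other filters, a replicate block, 2 covariates and leaving out libraries, among them control 3 and control 4 together, a pair known from those earlier results.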

Additional observations from a re-analysis of the deposited data

Results flagged for a closer look

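Of 81 groups of values examined, 15 held a library far from the others of its group, by a gap larger than Dixon's 95% critical value. The rate of about 1 group in 20 by chance holds only for independent, normally distributed values. CPM were skewed, a group with counts in a single library is always flagged, and the groups share libraries, so the 15 cannot be set against that rate. Control 3 was the flagged library in the pathway genes Tlr3 (8.01 CPM, next 1.13), Tlr8 (34.5, next 0), Tlr9 (17.6, next 0.254), Cd14 (171, next 28.4) and Card9 (33.3, next 0), and in the summed markers of monocytes and macrophages (11500 CPM, next 2500) and of dendritic cells (120, next 44.0). Other high libraries were treated 4 for Tlr5 (4.95 CPM, next 0), treated 6 for Tlr9 (10.2, next 2.84), treated 1 for Nlrp3 (9.76, next 3.91), treated 3 for Syk (679, next 407) and control 2 for Irak2 (21.2, next 8.36). Treated 4 was also high in summed T and NK cell markers (78.6 CPM, next 47.6) and in basophil and mast cell markers (460 CPM, next 37.2), while control 4 was low in basophil and mast cell markers (3.31 CPM, next 11.6).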

How the results depend on the processing

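The count of pathway genes past the adjusted threshold was 0 under every alternative run, as was that of the further genes. Unadjusted counts moved. Higher pathway genes, 2 at first, numbered 1 with the replicate block and 1 in the same 8 libraries without it (Syk in both, without Irak3), 7 without control 3 and control 4, 0 with the identifier letters of the header as a covariate and 2 to 6 when 1 library was left out. The share of all genes with an unadjusted p under 0.05 moved too, from 6.82% at first to 2.7% with the block, 3.64% in the same libraries without it, 8.57% without control 3 and control 4, 3.44% with the letters, 8.75% with the monocyte covariate, 9.9% without a filter and 5.76% to 11.3% when 1 library was left out (11.3% without control 1). Lower pathway genes, 0 at first, numbered 1 with DESeq2 size factors and with DESeq2 (Nlrp3), and 0 to 1 when 1 library was left out (1 without treated 1, control 1 or control 2). Of the further genes, 2 higher at first, there were 5 with DESeq2, 6 without a filter, 1 with a stricter one, 1 in the 8 libraries without the block, 15 without control 3 and control 4, 4 with the monocyte covariate, 4 with the letters and 2 to 10 when 1 library was left out (10 without control 3, 9 without treated 3). Lower ones, 0 at first, numbered 1 in the 8 libraries without the block, 3 with the monocyte covariate and 0 to 1 when 1 library was left out. The cause was not tested. The letters leave treated 1 alone against the controls.

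Directions turned as follows, in log2 units, with no adjusted p under 0.05. Without control 3 and control 4, Tlr6 was 0.21, Tirap -0.22, Nod2 0.31, Nlrp3 7.08 (both remaining controls at 0) and Fcer1g 0.16. With the letters, Tlr6 was 0.25, Cd14 -0.67 and Nod2 0.53. With the monocyte covariate, Cd14 was -0.59, Unc93b1 -0.45 and Clec7a -0.44. Myd88, near 0, was -0.021 with DESeq2 size factors, -0.017 with DESeq2 and -0.004 with the stricter filter. With the replicate block, Tlr7 was -0.37, Myd88 -0.49 and Nod2 0.19, and in the same libraries without the block, a fit added after seeing the data, Tlr7 was -0.024, Myd88 -0.30 and Clec7a -0.19. When 1 library was left out, Myd88 ran from -0.13 to 0.20, Nod2 from -0.42 to 0.39 and Fcer1g from -0.23 to 0.08. Same-numbered libraries had correlations of deviations of -0.0392, 0.0224, -0.11 and -0.0496. Libraries of different number were not compared, so these values cannot decide whether the numbers pair the libraries.

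Marker differences near 0 also turned. With TMM-scaled totals, eosinophil markers were at -0.21, neutrophil at -0.26, dendritic cell at -0.14 and platelet at -0.16. Without control 3 and control 4, eosinophil markers were at -0.47, T and NK cell at 0.68 and erythroid at 2.49. When 1 library was left out, they ran from -0.13 to 0.30 (eosinophil), -0.16 to 0.16 (neutrophil), -0.52 to 0.20 (T and NK cell), -0.055 to 0.52 (dendritic cell), -1.86 to 0.62 (erythroid) and -0.68 to 0.85 (platelet).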
